A study of Mus musculus with 28 samples.

Results

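Livers of wild-type and macrophage-specific Pparg knockout mice were compared for how alike their responses to di(2-ethylhexyl) phthalate (DEHP), a plasticizer, were after 28 days. The comparison rests on 12 of the 28 libraries of the series: 3 of each genotype given DEHP and 3 of each genotype given the vehicle carboxymethyl cellulose (CMC), replicates 5 to 7 in the column names. All mice were C57BL/6. The wild-type CMC and knockout CMC groups received 0.5% CMC by gavage, and the wild-type DEHP and knockout DEHP groups received DEHP at 625 mg/kg of body weight. The labels give males of 20 to 30 g with 12 mice per group, without saying which mice gave which library, so the p-values measure only the spread between these libraries. They name neither the Cre line nor the floxed allele behind the knockout. The remaining 16 libraries were from 90 days and enter only the values given for 90 days and a fit of all 28 libraries.

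DEHP is hydrolysed in the gut and liver to a monoester that activates PPARalpha, a nuclear receptor of hepatocytes. In rodent liver this receptor raises genes of fatty acid uptake, of peroxisomal and mitochondrial beta-oxidation and of omega-hydroxylation, and its activation is known for enlarged livers and many peroxisomes. PPARgamma, encoded by Pparg, is a related receptor with roles in fat storage and in the differentiation of macrophages. The knockout was aimed at macrophages, which in liver are chiefly Kupffer cells, whereas the measured RNA came from the whole organ and mostly from hepatocytes. In whole liver, fewer cells of a type and less RNA per cell cannot be told apart.

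The values are FPKM, fragment numbers corrected for transcript length and library size, for 17792 genes. A rough estimate from the steps between low values gave a depth of 10.04 M (mega) to 13.08 M fragments. Between 9738 and 10641 genes reached 1 FPKM in a library. Hepatocyte markers were abundant, with Alb (albumin) between 22853 and 42760 FPKM. Xist, which silences an X chromosome in females, ran from 26.7 to 41 FPKM over the 12 libraries, and Ddx3y, Uty, Eif2s3y and Kdm5d of the Y chromosome stood at 0 in all 12, which goes against the label of male mice. Pparg (chromosome 6, 115360879 to 115490404 on GRCm38) did not mark the knockout in whole liver. In wild type, Pparg stood at 2.87, 2.89 and 2.69 FPKM with CMC and at 4.33, 6.54 and 7.65 FPKM with DEHP. In the knockout it had 3.81, 1.61 and 2.02 FPKM under CMC and 5.09, 4.72 and 5.54 FPKM under DEHP. Its responses were 0.88 in wild type and 0.86 in the knockout on the log2 scale, a difference of -0.02 (95% interval -0.68 to 0.64). Lyz2, which encodes lysozyme in phagocytes, did mark it without overlap, with 38.5 to 120.01 FPKM in the 6 wild-type libraries and 0.73 to 2.67 FPKM in the 6 knockout libraries.

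Wild-type CMC replicate 7 and wild-type DEHP replicate 5 stood apart from the other 10 libraries. The first principal component, with 54.1% of the variance, separated DEHP from CMC in both genotypes. The second, with 15.9%, put these libraries at -26.1 and -34.9 and the other 10 between -1.5 and 11.9. The summed level of 12 markers of sinusoidal endothelial cells, the lining of the liver's capillaries, was 85.3 and 62.4 FPKM in them and 170.3 to 242.6 FPKM in the others. The 16 markers of Kupffer cells and macrophages summed to 285 and 254.8 FPKM there and to 319.5 to 710.4 FPKM elsewhere, and no marker on either list was at 0 in any library. Wild-type DEHP replicate 5 also had 50230 FPKM summed over 35 acute phase, complement and coagulation genes, which the other 5 DEHP libraries held at 20510 to 21770 FPKM. Some results are also given without these libraries, and what their marker levels contribute was not tested. When they were left out, some differences between the genotypes shrank and others grew.

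**Figure D1:**
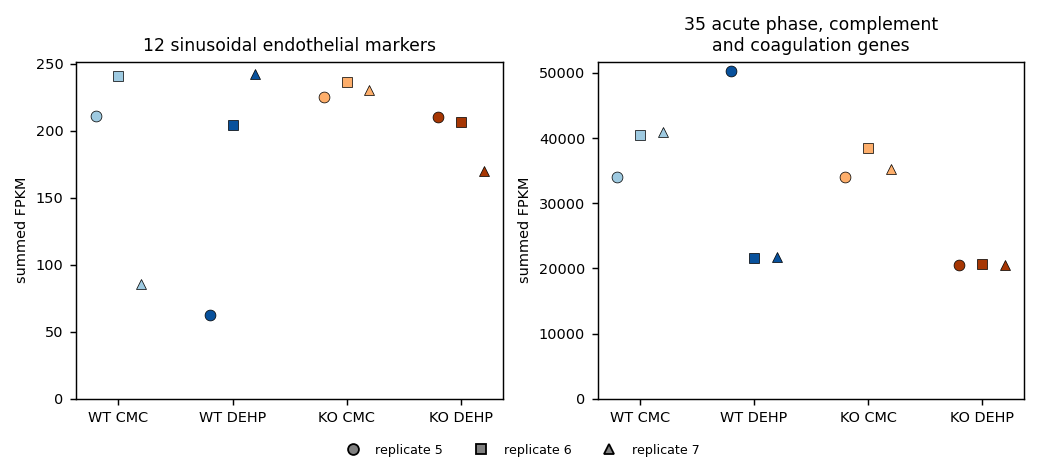
Summed FPKM of 12 sinusoidal endothelial markers (left) and of 35 acute phase, complement and coagulation genes (right) in each of the 12 libraries, with 1 point per library and the symbol giving the replicate number. Wild-type CMC replicate 7 and wild-type DEHP replicate 5 are lowest on the left at 85.3 and 62.4 FPKM, and wild-type DEHP replicate 5 is highest on the right at 50230 FPKM.

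The first question was how far both livers answered DEHP with the same genes. Responses are differences of group means of log2(FPKM + 1), DEHP minus CMC, fitted with limma for the 10862 genes that reached 1 FPKM in 3 or more of the 12 libraries. A gene is called where the p, adjusted by Benjamini-Hochberg, is under 0.05. In wild type 982 genes rose (9.04% of those tested) and 567 fell (5.22%). In the knockout 1147 rose (10.6%) and 787 fell (7.25%). Of these, 1225 genes were called the same way in both genotypes (11.3% of genes tested), 793 higher (7.3%) and 432 lower (3.98%), and 0 were called in opposite directions. The shared genes made up 79.1% of the wild-type calls and 63.3% of the knockout calls. For genes that rose the shares were 80.8% and 69.1%, and for genes that fell 76.2% and 54.9%. The responses have no library in common, but they share the estimate of each gene's spread. When each genotype was fitted on its own 6 libraries, 1045 genes were called in wild type, 2488 in the knockout, 926 in both the same way and 0 in opposite directions.

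Over all 10862 genes the Pearson correlation between the wild-type and knockout responses was 0.888, a description across genes, which are not independent replicates. Single libraries showed the same likeness across genotypes. Over the 1549 genes called in wild type, each knockout DEHP library, set against the knockout CMC mean, had a correlation of 0.951 to 0.956 with the wild-type response. Over the 1934 genes called in the knockout, the wild-type DEHP libraries had correlations of 0.923, 0.955 and 0.947 with the knockout response, with the lowest in replicate 5.

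**Figure D2:**
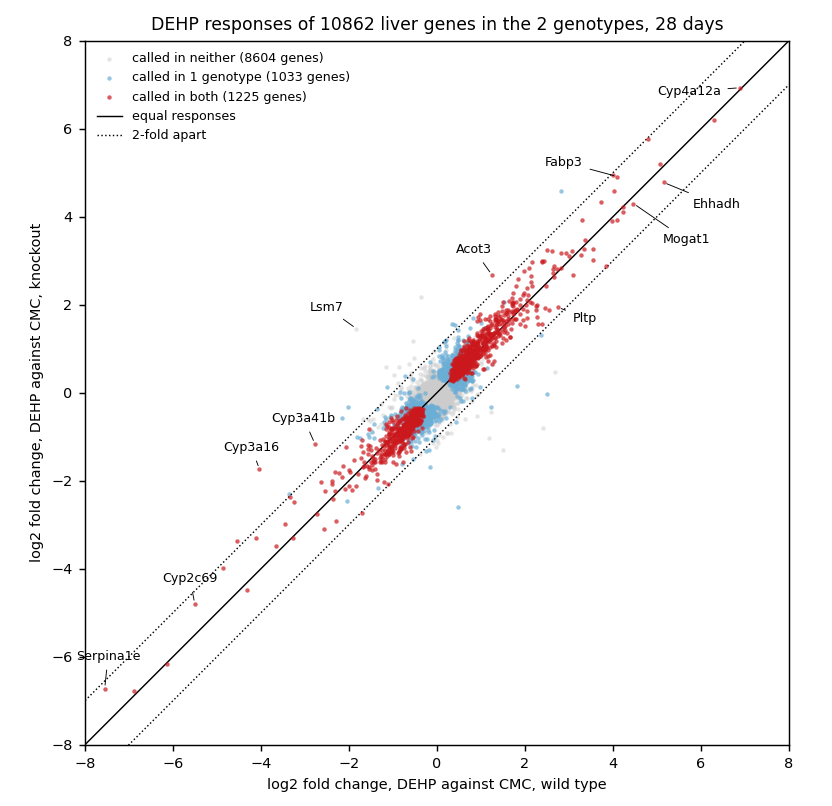
Each point is 1 of 10862 genes, with the log2 fold change under DEHP in wild type on the x axis and in the knockout on the y axis, on the log2(FPKM + 1) scale. The 1225 genes called in both genotypes lie along the solid line of equal responses, and none of them lies in the upper left or lower right quadrant; the dotted lines mark responses that are 2-fold apart.

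Called genes of one genotype leaned the same way in the other. Of the 324 genes called only in wild type, 311 had the same sign in the knockout, with a median size of 0.545 in wild type and 0.297 in the knockout in that direction (log2). Of the 709 called only in the knockout, 689 had the same sign in wild type, with medians of 0.54 in the knockout and 0.3 in wild type. Across all 10862 genes tested, called or not, the sign was the same in both genotypes for 8570. Choosing genes by a call in one genotype favours larger values there. The difference between the responses itself had an unadjusted p under 0.05 in 50 of the 324 and in 96 of the 709, against 2.68% of all genes tested, and was called in 0 of either.

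The second question was whether the responses differed in size at any gene. The interaction, the knockout response minus the wild-type response, was called for 0 of 10862 genes (0%) by limma. An unadjusted p under 0.05 was seen for 291 genes (2.68%), and the smallest adjusted p was 0.393. The difference reached 1 on the log2 scale, a 2-fold difference of fold changes, in 56 genes. Its standard deviation across genes was 0.243, beside a root mean square standard error of 0.266. The calls depended on the fit. With all 28 libraries setting the spread, 2 genes passed, the cytochrome P450 genes Cyp3a41b and Cyp3a16, and they are described below. Both were below the filter at 90 days. The added libraries thus set their spread at low levels, so the calls from that fit carry little weight.

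A p that misses the threshold does not show that responses were alike, so the opposite was tested too. The interaction was set against limits of -1 and 1 on the log2 scale with 2 one-sided limma tests. In 10068 genes (92.7% of those tested) the responses lay within 2-fold of each other at an adjusted p under 0.05. Of these, 2870 were called in the mean response to DEHP described next, so most of them were genes without a called response. With limits of 1.5-fold, 4241 genes (39%) passed. The median unadjusted 95% interval reached 0.466 to each side of a gene's difference, so smaller differences at single genes were mostly not resolved by 3 libraries per group. After adjustment no larger difference was called either.

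For the genes that did respond, a set was taken by the mean response over both genotypes, which in this balanced design is orthogonal to the difference between them. It held 3123 genes, 1773 higher (16.3%) and 1350 lower (12.4%). The sign was the same in both genotypes for 3120, which choosing by the mean favours. Responses within 2-fold were shown for 2870 of the 3123 (91.9%). That share fell with the size of the response as the standard errors rose. Among 438 genes with a mean response of at least 1, all 438 had the same sign, 404 were called in both genotypes and 299 (68.3%) were shown to lie within 2-fold. Among 95 genes at 2 or more it was 40 genes (42.1%), and among 36 genes at 3 or more it was 12 (33.3%). The median standard error of the difference was 0.198 for all 3123 genes and 0.485 for those 36.

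The sizes were close. Over the 438 genes with a mean response of at least 1 the median response in the direction of the mean was 1.38 in wild type and 1.49 in the knockout, and over the 36 genes at 3 or more it was 4.05 in both. Over the 3123 genes the response was larger in the knockout for 1951 (62.5%), by a median of 0.0579 on the log2 scale. This lean was smaller without the 2 wild-type libraries that stood apart, where the plain mean is no longer orthogonal to the difference. It was 0.0167 without wild-type CMC replicate 7, 0.0105 without wild-type DEHP replicate 5, and -0.000485 without both, when 49.9% of the genes were larger in the knockout. With the libraries left out and the genes chosen again by a mean orthogonal to the difference, it was 0.0206 over 3691 genes, of which 53.6% were larger in the knockout. Leaving out knockout CMC replicate 5 or knockout DEHP replicate 7 raised it to 0.0891 and 0.0996.

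Cyp4a12a and Cyp4a12b had the highest mean responses among genes called in both genotypes without overlap between DEHP and CMC, and they matched closely between the genotypes. Cyp4a12a (chromosome 4, 115299046 to 115332815 on GRCm38), a fatty acid omega-hydroxylase that adult male mice express more than females, is the example. The wild-type values of Cyp4a12a were 0.51, 0.16 and 0.15 FPKM under CMC and 104, 174 and 180.3 FPKM under DEHP. The knockout values were 0.49, 0.6 and 0.07 FPKM under CMC and 163, 138 and 202 FPKM under DEHP. No DEHP library overlapped a CMC library, and the DEHP ranges of both genotypes overlapped each other. The responses were 6.89 and 6.93, with a difference of 0.05 (95% interval -0.64 to 0.74), and were within 2-fold (adjusted p = 0.00702). Its neighbour Cyp4a12b was listed at 0 in all 3 wild-type CMC libraries. Under DEHP it had 54.9, 80.7 and 104 FPKM in wild type. The knockout had 0.04, 0 and 0 FPKM under CMC and 58.9, 74.6 and 88.6 FPKM under DEHP. The difference between genotypes was -0.10 (95% interval -0.71 to 0.51) and within 2-fold (adjusted p = 0.00496). Of 10 Cyp4a and Cyp4f genes tested, 6 rose and 2 fell in each genotype, the same ones in both, with median responses of 3.58 and 3.29.

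Cyp4a14 and Cyp4a10, classic targets of PPARalpha, showed where precision ran out. Cyp4a14 measured 159.7, 272 and 219 FPKM in wild-type CMC livers and 3048, 3408 and 4565 FPKM in wild-type DEHP livers. It measured 986, 332 and 75.6 FPKM in knockout CMC livers and 3875, 4849 and 4654 FPKM in knockout DEHP livers. Knockout CMC replicate 5 was the highest of the 6 CMC libraries and replicate 7 the lowest, and the difference of -0.17 (95% interval -2.11 to 1.77) was not shown to lie within 2-fold (adjusted p = 0.189). The same order held for Cyp4a10, with 737, 252 and 56.4 FPKM in knockout CMC replicates 5, 6 and 7. Its responses were 4.23 and 4.21, and their difference was -0.02 (95% interval -1.94 to 1.90).

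Genes of peroxisomal beta-oxidation, the pathway that shortens very long-chain fatty acids, rose in most cases. Of 20 tested, 13 rose in wild type and 14 in the knockout, 13 of them in both. Only Pecr was called as falling, in the knockout alone, but in both genotypes without the 2 libraries that stood apart. The median response was 0.86 in each genotype, and 19 of 20 were shown to lie within 2-fold, near the 92.7% of all genes tested. Ehhadh, the bifunctional enzyme of the pathway, had the largest response of the list. Wild-type livers held Ehhadh at 118, 70.4 and 101 FPKM under CMC and at 1970.4, 4028 and 4853 FPKM under DEHP. Knockout livers held it at 394, 135 and 98.4 FPKM under CMC and at 4125, 5339.8 and 5032 FPKM under DEHP. The 6 DEHP libraries all lay above the 6 CMC libraries, with wild-type DEHP replicate 5 the lowest of the 6. The responses were 5.15 and 4.78, and their difference of -0.37 (95% interval -1.71 to 0.97) was too wide to place within 2-fold (adjusted p = 0.168). Without the 2 libraries that stood apart it was -0.81.

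Mitochondrial beta-oxidation and the carnitine shuttle moved the same way. Of 20 genes tested, 17 rose in wild type and 18 in the knockout, 17 in both, with medians of 1.09 and 1.22. Within 2-fold were 18 of the 20, near the 92.7% of all genes tested. Acadm, the medium-chain acyl-CoA dehydrogenase, had responses of 1.48 and 1.44, with a difference of -0.04 (95% interval -0.47 to 0.39). Among 12 genes of ketogenesis and the fasting switch, 6 rose in each genotype, all 6 in both, and 8 of the 12 were within 2-fold. Of 20 peroxisome assembly genes 5 rose in both genotypes, led by Pex11a, which promotes peroxisome division, at 1.43 and 1.75. Of the 15 PPAR and RXR receptors and coactivators, 15 were within 2-fold, where 92.7% of all genes tested were. Ppard, the gene of another PPAR, fell in both, by 1.15 and 0.72, and Ppara itself had 0.33 and 0.51, not called in either. Without the 2 libraries that stood apart Ppara was called in both, at 0.644 in wild type (limma, adjusted p = 0.0228) and 0.505 in the knockout (adjusted p = 0.0186). The difference of Ppard was 0.43 with all 12 libraries and 0.68 without the 2.

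**Figure D3:**
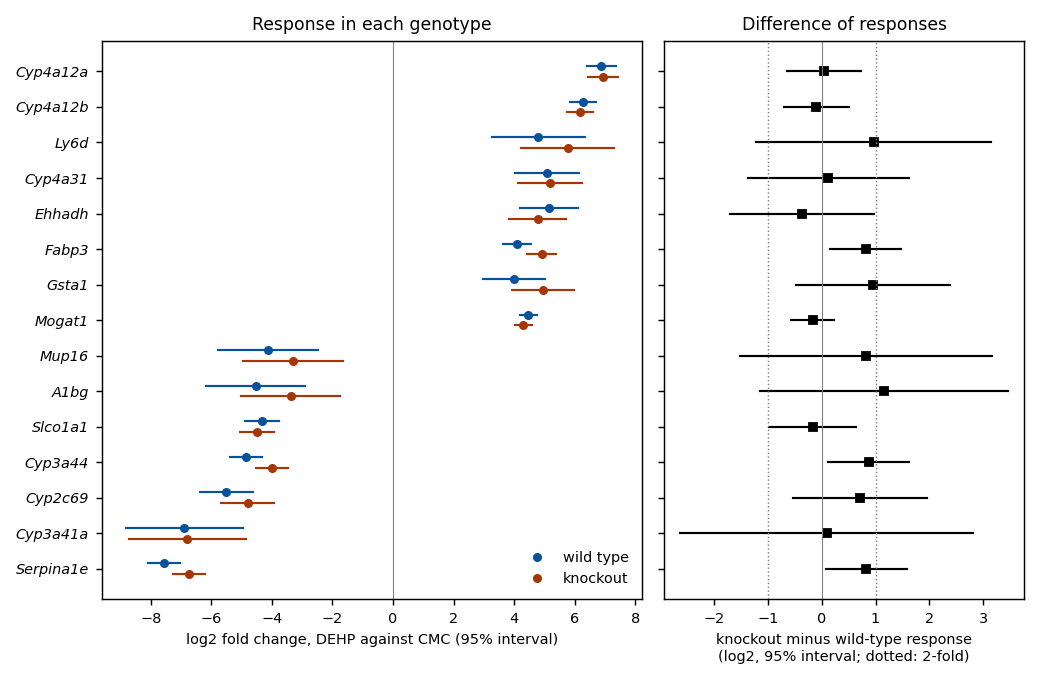
Responses in wild type and the knockout (left) and their difference (right) for the 8 genes with the highest and 7 of the 8 with the lowest mean response among genes called in both, on the log2(FPKM + 1) scale with 95% intervals. The intervals of the genotypes overlap in the left panel for Cyp4a12a and Mogat1, whose differences stay inside the dotted 2-fold limits, while those of Cyp3a41a and A1bg extend past both limits; Cyp4a12b was listed at 0 in wild-type CMC, so its value has no fold.

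Genes of lipid uptake and of lipid droplets, the organelles that store fat, mostly rose. Of 17 tested, 14 rose in each genotype, the same 14, with medians of 1.34 in wild type and 1.68 in the knockout, and 10 were within 2-fold. Without the 2 libraries that stood apart both medians were 1.68. Mogat1, a monoacylglycerol acyltransferase, had one of the narrowest differences among strong responses. In wild type, Mogat1 stood at 0.07, 0.09 and 0.08 FPKM with CMC and at 20.7, 26.6 and 21.7 FPKM with DEHP. In the knockout it had 0.07, 0.16 and 0.39 FPKM under CMC and 22.2, 21.6 and 24.2 FPKM under DEHP. The responses of 4.47 and 4.30 differed by -0.17 (95% interval -0.57 to 0.24) and were within 2-fold (adjusted p = 0.000956). Lpl, lipoprotein lipase, had 4.23 and 4.11, with a difference of -0.12 (95% interval -0.74 to 0.50).

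Plin2, the coat protein of lipid droplets, had a larger response in the knockout before adjustment. The wild-type values of Plin2 were 148, 141 and 176 FPKM under CMC and 254, 359 and 316 FPKM under DEHP. The knockout values were 140.1, 136 and 113 FPKM under CMC and 392, 477 and 365 FPKM under DEHP. Knockout DEHP libraries all lay above the wild-type DEHP libraries. The responses were 0.99 and 1.66, and the difference of 0.67 (95% interval 0.21 to 1.13) had an unadjusted p of 0.00757 and an adjusted p of 1. It was 0.44 without the 2 libraries. Fabp3, a fatty acid binding protein, had 4.10 and 4.91, with a difference of 0.82 (95% interval 0.15 to 1.48) and an unadjusted p of 0.0205.

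Pltp, the phospholipid transfer protein of plasma, went the other way. Pltp measured 23, 30.2 and 32.6 FPKM in wild-type CMC livers and 167, 174 and 258 FPKM in wild-type DEHP livers. It measured 34.5, 36.7 and 43.4 FPKM in knockout CMC livers and 159, 145 and 143 FPKM in knockout DEHP livers. The knockout libraries were above the wild-type ones under CMC without overlap and below them under DEHP without overlap. The responses were 2.75 and 1.94, both called, and the difference of -0.81 (95% interval -1.33 to -0.29) had an unadjusted p of 0.00518 and an adjusted p of 1. Without the 2 libraries that stood apart the difference was -1.02. At 90 days the responses of Pltp were 2.02 and 1.97.

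Acyl-CoA thioesterases, which release free fatty acids from coenzyme A, had medians of 0.64 in wild type and 1.18 in the knockout over 13 genes, although the median of the difference per gene was 0.105. Of these, 8 rose in wild type and 9 in the knockout, 8 in both. Only 8 of the 13 were shown to lie within 2-fold, where 92.7% of all genes tested were. Acot3 (chromosome 12, 84052144 to 84060400), a peroxisomal member, had a larger response in the knockout before adjustment. Wild-type livers held Acot3 at 11.3, 12.6 and 12.7 FPKM under CMC and at 19, 40.5 and 36 FPKM under DEHP. Knockout livers held it at 11.4, 7.94 and 7.41 FPKM under CMC and at 81.9, 75.8 and 37.3 FPKM under DEHP. DEHP and CMC libraries did not overlap in either genotype, and knockout DEHP replicate 7 lay within the wild-type DEHP range. The responses were 1.25 and 2.68, and the difference of 1.43 (95% interval 0.51 to 2.35) had an unadjusted p of 0.0053 and an adjusted p of 1. It was 1.08 without the 2 libraries. Acot5, with 0 FPKM in all 6 CMC libraries, reached 1.27 to 3.08 FPKM in wild type and 1.32 to 2.43 FPKM in the knockout under DEHP. Acot3 lies in a cluster of similar thioesterase genes on chromosome 12, so fragments may have been divided between members.

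**Figure D4:**
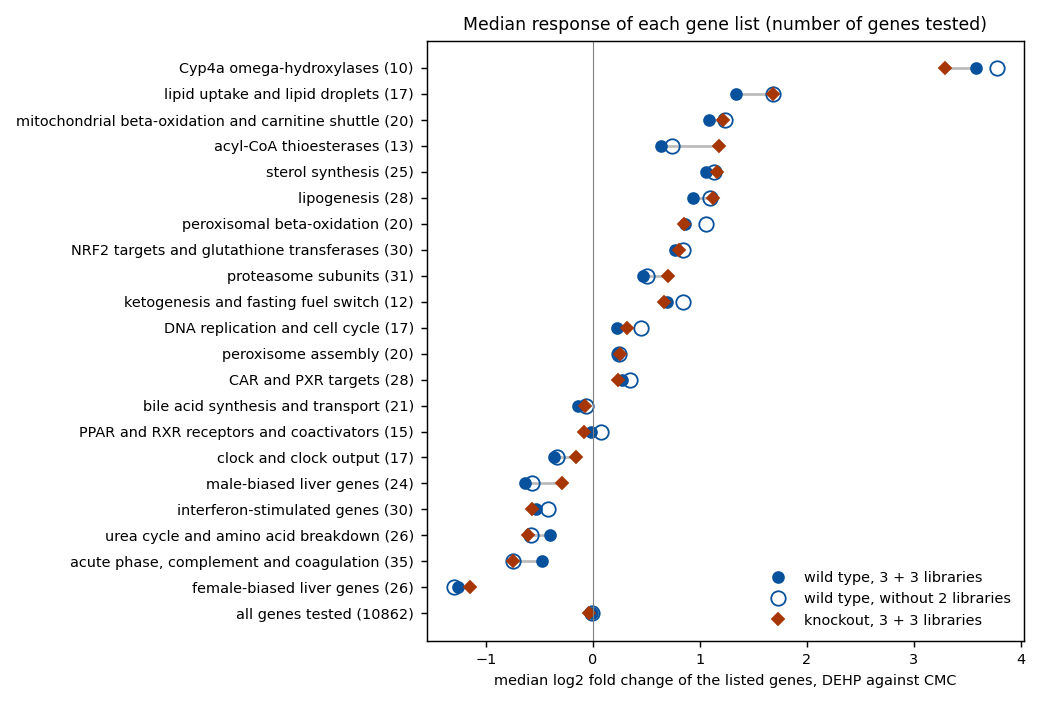
Median log2 fold change under DEHP of each gene list in wild type (filled circles), in wild type without replicate 7 of CMC and replicate 5 of DEHP (open circles) and in the knockout (diamonds), with all genes tested at the bottom. Cyp4a omega-hydroxylases have the highest medians in both genotypes, 3.58 and 3.29, and female-biased genes the lowest, -1.26 and -1.15; male-biased genes lie at -0.632 and -0.288, and the open circle of the acute phase list, -0.745, meets the knockout at -0.748.

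Many anabolic lipid genes rose too. Of 28 lipogenic genes 17 rose in wild type and 20 in the knockout, 17 in both, with medians of 0.93 and 1.12, and 23 were within 2-fold. Me1, malic enzyme, which supplies NADPH, had 2.65 and 2.87, with a difference of 0.22 (95% interval -0.55 to 0.99). Fasn, fatty acid synthase, had 1.09 and 1.25, and its wild-type adjusted p was 0.0535 without the 2 libraries. Of 25 sterol synthesis genes, 15 rose in wild type and 16 in the knockout, 14 in both, with medians of 1.06 and 1.16. Responses within 2-fold were shown for 18 of the 25, where 92.7% of all genes tested passed. Acat2, which joins acetyl-CoA units for sterol synthesis, had 1.88 and 1.80, with a difference of -0.08 (95% interval -0.86 to 0.70).

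Detoxification genes followed. Of 30 NRF2 targets and glutathione transferases, 20 rose in wild type and 22 in the knockout, 20 in both, with medians of 0.77 and 0.81. Within 2-fold were 27 of the 30, near the 92.7% of all genes tested. Gsta1, a glutathione transferase, had 4 and 4.95, with a difference of 0.95 (95% interval -0.48 to 2.39). Nqo1, a quinone reductase and NRF2 target, had 0.78 and 0.96. Among 28 targets of the xenobiotic receptors CAR and PXR, 7 rose and 5 fell in wild type, and 11 rose and 7 fell in the knockout. Over all genes tested, 9.04% rose and 5.22% fell in wild type, and 10.6% rose and 7.25% fell in the knockout. Responses within 2-fold were shown for 23 of the 28. Cyp2b10, the usual CAR marker, had 2.39 and 1.55, and Cyp2c37, a hepatic P450, fell by 2.39 and 2 and was within 2-fold (adjusted p = 0.00646).

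Subunits of the proteasome, the cell's main protein-degrading complex, mostly rose. Of 31 tested, 25 rose in wild type and 30 in the knockout, 25 of them in both, with responses of 0.15 to 1.09 and 0.246 to 1.21. The medians were 0.468 and 0.704, and the difference was above 0 in 30 of 31, although 31 of 31 were within 2-fold, where 92.7% of all genes tested were. Across all 10862 genes the difference was above 0 in 4904. Without the 2 libraries the medians were 0.507 and 0.704. Psmb5, a catalytic subunit, had 1.09 and 1.21, and Psma4 had 0.39 and 0.75, with a difference of 0.36 (95% interval 0.08 to 0.65) and an unadjusted p of 0.0177.

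Sex-biased genes were among the largest decreases. Of 26 female-biased liver genes, 14 fell and 3 rose in wild type, 13 fell and 3 rose in the knockout, and 13 fell in both. The medians were -1.26 and -1.15, and only 9 of the 26 were shown to lie within 2-fold. Slc22a26, an organic anion transporter, fell evenly. In wild type, Slc22a26 stood at 56.9, 75.7 and 63.1 FPKM with CMC and at 7.86, 4.69 and 5.37 FPKM with DEHP. In the knockout it had 58.7, 42.8 and 51 FPKM under CMC and 4.06, 4.36 and 4.31 FPKM under DEHP. The responses were -3.26 and -3.29, with a difference of -0.03 (95% interval -0.54 to 0.48) and an adjusted p of 0.00147 for lying within 2-fold.

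Male-biased genes moved in both directions: of 24 tested, 5 rose and 8 fell in wild type, 5 rose and 6 fell in the knockout, and without the 2 libraries 5 and 7 fell. Only 11 of the 24 were shown to lie within 2-fold, against 92.7% of all genes tested. Serpina1e, one of the alpha-1-antitrypsin genes, had the lowest mean response. The wild-type values of Serpina1e were 397, 626 and 363 FPKM under CMC and 1.04, 2.08 and 1.18 FPKM under DEHP. The knockout values were 316, 467 and 255 FPKM under CMC and 2.68, 1.98 and 1.89 FPKM under DEHP. The DEHP values were at or below 2.68 FPKM in all 6 libraries. The responses were -7.56 and -6.73, and the difference of 0.83 (95% interval 0.07 to 1.58) had an unadjusted p of 0.0338. Its paralogue Serpina1c fell by 2.31 and 2.23, with a narrow difference of 0.09 (95% interval -0.32 to 0.49).

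The genes that passed in the fit of all 28 libraries were Cyp3a genes of chromosome 5, steroid and drug hydroxylases that female mouse liver expresses, and their sequences bear on how far they can be told apart. The promoters of Cyp3a41a, Cyp3a41b and Cyp3a16 are shown because these similar genes were counted separately, Cyp3a41a and Cyp3a41b being near-identical. Each is the 300-base window around a start site on the minus strand as given for RefSeq (GRCm38.p6), at chr5:145720087-145720386, chr5:145584681-145584980 and chr5:145469674-145469973. Capitals mark bases that differ from Cyp3a41a in a pairwise alignment, inserted bases included.
Cyp3a41a: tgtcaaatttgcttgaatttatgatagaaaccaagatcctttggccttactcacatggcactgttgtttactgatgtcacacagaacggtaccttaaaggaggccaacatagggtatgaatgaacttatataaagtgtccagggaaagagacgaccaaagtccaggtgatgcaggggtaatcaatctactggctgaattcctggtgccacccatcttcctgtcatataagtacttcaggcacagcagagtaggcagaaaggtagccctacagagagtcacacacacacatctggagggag
Cyp3a41b: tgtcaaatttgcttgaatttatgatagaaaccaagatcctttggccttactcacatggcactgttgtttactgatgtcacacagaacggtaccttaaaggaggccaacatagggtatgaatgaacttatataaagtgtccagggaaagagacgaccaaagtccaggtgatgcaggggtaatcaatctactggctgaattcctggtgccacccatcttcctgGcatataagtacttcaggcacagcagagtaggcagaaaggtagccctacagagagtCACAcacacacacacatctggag
Cyp3a16: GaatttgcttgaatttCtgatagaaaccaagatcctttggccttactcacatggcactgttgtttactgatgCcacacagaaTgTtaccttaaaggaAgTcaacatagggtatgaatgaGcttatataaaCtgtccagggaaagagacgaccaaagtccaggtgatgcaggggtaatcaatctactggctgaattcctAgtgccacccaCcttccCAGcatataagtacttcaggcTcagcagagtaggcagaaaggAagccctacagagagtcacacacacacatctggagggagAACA
The promoters of Cyp3a41a and Cyp3a41b matched at 295 of 296 aligned bases, and those of Cyp3a41a and Cyp3a16 at 280 of 296. The transcripts of Cyp3a41a and Cyp3a41b were 99.9% identical, 2058 of 2060 bases, and 88.4% of the 100-base windows of Cyp3a41a stood unchanged in Cyp3a41b. Cyp3a16 was 92.2% identical to Cyp3a41a and shared 0 such windows. No source used here tells how fragments were divided between Cyp3a41a and Cyp3a41b, so the values of both are uncertain.

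Cyp3a41b (chromosome 5, 145558664 to 145584732) had the smallest interaction p. Cyp3a41b measured 7.27, 6.82 and 4.91 FPKM in wild-type CMC livers and 0, 0.19 and 0 FPKM in wild-type DEHP livers. It measured 1.86, 0.84 and 1.47 FPKM in knockout CMC livers and 0.16, 0 and 0 FPKM in knockout DEHP livers. Under CMC the knockout libraries lay below the wild-type libraries without overlap, and under DEHP both genotypes were at or near 0. The responses were -2.78 and -1.16 on the log2(FPKM + 1) scale, and the difference of 1.61 (95% interval 1.05 to 2.18) had an unadjusted p of 3.62e-05 and an adjusted p of 0.393. The adjusted p was 0.0447 after quantile normalization and 3.74e-05 with all 28 libraries in the fit, and over the remaining settings that kept all 12 libraries it ran from 0.162 to 1. The fit of all 28 takes in the 90-day libraries, where this gene was below the filter. Under CMC alone the knockout minus wild-type difference was -1.63 (adjusted p = 0.00392), and under DEHP it was -0.01. Both share libraries with the interaction, which was 1.72 without the 2 libraries that stood apart.

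Cyp3a16 had the same shape. Wild-type livers held Cyp3a16 at 21.4, 23.1 and 10.3 FPKM under CMC and at 0, 0.37 and 0 FPKM under DEHP. Knockout livers held it at 4.81, 0.58 and 3.28 FPKM under CMC and at 0, 0 and 0.06 FPKM under DEHP. The responses were -4.04 and -1.74, and the difference of 2.30 (95% interval 1.08 to 3.53) had an unadjusted p of 0.00143, with an adjusted p of 1 in the 12 libraries and 0.0327 with all 28 in the fit. In the 90-day libraries of that fit Cyp3a16 was below the filter. Without the 2 libraries that stood apart the difference was 2.57. The log2 ratio of the group means without a pseudocount was -7.21 in wild type and -7.18 in the knockout. Each rests on a DEHP group with 2 of 3 libraries at 0, so their closeness carries little weight. A fall by the same factor from a lower level is smaller on the log2(FPKM + 1) scale, and what this contributes was not tested. For Cyp3a41b the ratios of the group means were -6.64 and -4.70, also from DEHP groups with 2 of 3 libraries at 0. The far more abundant Cyp3a41a fell alike in the fit but imprecisely. In wild type, Cyp3a41a stood at 852, 879.6 and 705 FPKM with CMC and at 4.56, 34.1 and 0.64 FPKM with DEHP. In the knockout it had 341, 359.9 and 301 FPKM under CMC and 8.11, 0.1 and 1.73 FPKM under DEHP. The knockout again started below wild type without overlap, and the DEHP libraries of each genotype spread widely. The responses were -6.89 and -6.79, with a difference of 0.09 (95% interval -2.63 to 2.81).

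**Figure D5:**
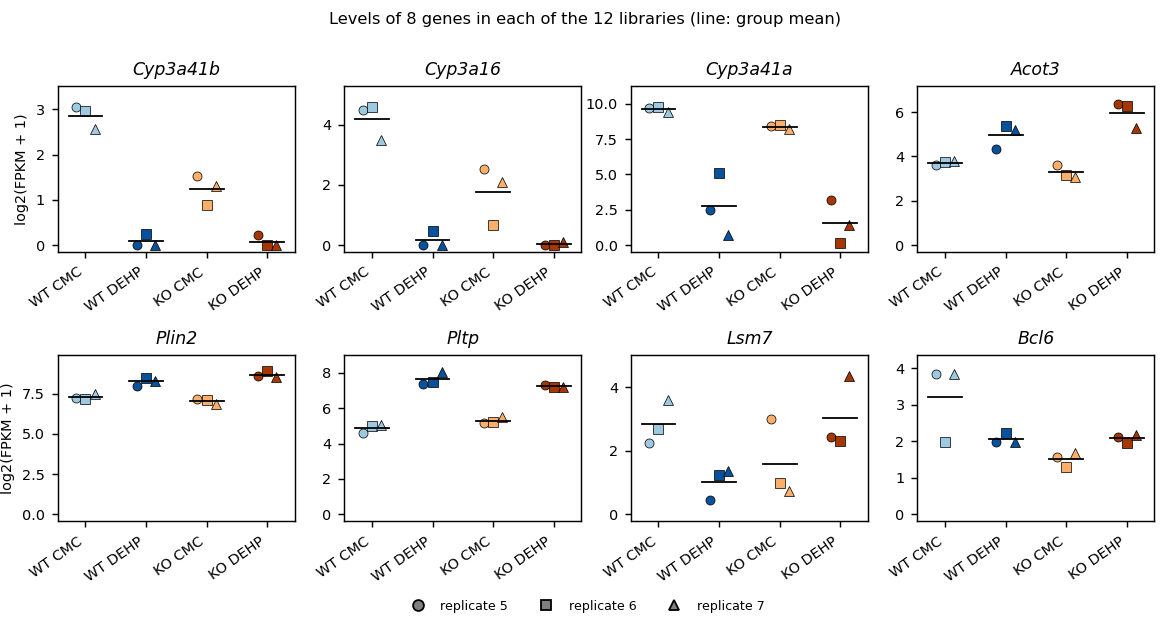
Levels of 8 genes in each of the 12 libraries as log2(FPKM + 1), with 1 point per library, the symbol giving the replicate number and the line the group mean. Cyp3a41b, Cyp3a16 and Cyp3a41a start lower in the knockout under CMC; Cyp3a41b and Cyp3a16 end near the wild-type level under DEHP, where the Cyp3a41a libraries spread widely. Acot3 and Plin2 end higher in the knockout, Pltp ends lower, and Lsm7 and Bcl6 show single libraries far from the others of their group.

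No gene was called in opposite directions, and 6 had an unadjusted p under 0.05 in both genotypes with opposite signs. Rps4l, a ribosomal protein S4 family gene, went from 17, 20.3 and 17.4 FPKM to 11, 10.3 and 10.2 in wild type and from 12.55, 18.5 and 18.2 to 27.3, 18.3 and 19.5 in the knockout. Wild-type DEHP libraries lay below all others. The difference was 1.12 (95% interval 0.61 to 1.62) with an unadjusted p of 0.000408 and an adjusted p of 1. Trex1, a DNA exonuclease, had 0.43 and -0.66, with a difference of -1.08 (95% interval -1.58 to -0.59), and Lsm7, a component of the mRNA decay and splicing ring, had -1.84 and 1.46, with a difference of 3.29 (95% interval 1.37 to 5.21) that spanned a wide interval. In the knockout Lsm7 had 6.91, 0.98 and 0.67 FPKM under CMC and 4.34, 3.91 and 19.6 FPKM under DEHP, so the groups overlapped. Bcl6, a transcriptional repressor of the male-biased list, had 13.3, 2.93 and 13.3 FPKM in wild-type CMC livers and 2.93, 3.71 and 2.91 FPKM under DEHP. Its difference of 1.73 (95% interval 0.58 to 2.88) had an unadjusted p of 0.00649. Without wild-type CMC replicate 6, the low library, it was 2.35 with an adjusted p of 0.00134, the only gene called when a single library was left out. Replicate 7, which stood apart, stayed in that fit. Without the 2 libraries that stood apart the difference was 1.38, with responses of -0.80 and 0.57 and an adjusted p of 0.993 (limma).

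Of 26 genes of the urea cycle and amino acid breakdown tested, 7 fell in wild type and 17 in the knockout, with all 7 among the 17 and 0 rising in either. The medians were -0.40 and -0.61, and without the 2 libraries -0.579 and -0.608, with 11 and 19 falling. Hepatocyte markers fell as well, 4 of 9 in wild type and 7 in the knockout, with medians of -0.602 and -0.792. Over all genes tested, 5.22% fell in wild type and 7.25% in the knockout. Among them Trf, Serpina1a and Fgb are also on the acute phase list, so these lists are not independent. The part of hepatocyte markers in these results was not tested. Asl, argininosuccinate lyase of the urea cycle, had -0.95 and -1.18, with a difference of -0.23 (95% interval -0.67 to 0.21). Hal, histidine ammonia-lyase, had -0.89 and -1.38, and its difference of -0.49 (95% interval -0.93 to -0.04) had an unadjusted p of 0.0363 and was -0.28 without the 2 libraries. Gpt2, an alanine aminotransferase, had 0.13 and -0.42. The wild-type values of Gpt2 were 90.3, 80.0 and 82.1 FPKM under CMC and 90.1, 90.2 and 95.6 FPKM under DEHP. The knockout values were 101, 106 and 106 FPKM under CMC and 82.9, 71.4 and 79.1 FPKM under DEHP. The knockout libraries lay above the wild-type ones under CMC and below them under DEHP, without overlap, and the difference of -0.55 (95% interval -0.82 to -0.28) had an unadjusted p of 0.000789 and an adjusted p of 1.

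Of 35 acute phase, complement and coagulation genes, 13 fell in wild type and 18 in the knockout, 12 in both, and only 14 were shown to lie within 2-fold. Over all genes tested, 5.22% and 7.25% fell and 92.7% were within 2-fold. The median response was -0.48 in wild type and -0.75 in the knockout. Without the 2 libraries it was -0.745 and -0.748, with 17 and 23 falling and 23 within 2-fold. Saa1, serum amyloid A, a protein that liver secretes in inflammation, had 5878 FPKM in wild-type DEHP replicate 5 and 16 to 135 FPKM in the other 11 libraries. Saa2 had 6292 FPKM in that library and 4.06 to 69.4 FPKM in the other 11. C8b, a complement component, was steady, with -1.80 and -1.84 and a difference of -0.05 (95% interval -0.75 to 0.66). F2, prothrombin, had -0.58 and -0.75.

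Of 30 interferon-stimulated genes tested, 11 fell in wild type and 15 in the knockout, 11 in both, with medians of -0.53 and -0.56. Within 2-fold were 29 of the 30, near the 92.7% of all genes tested. Without the 2 libraries 6 fell in wild type and 18 in the knockout, with medians of -0.414 and -0.564. Isg15, a ubiquitin-like interferon marker, had -1.39 and -1.26, with a difference of 0.13 (95% interval -0.52 to 0.78). Ifi27l2b alone rose, by 2.04 and 2.37. Of 21 genes of bile acid synthesis and transport, 7 fell in wild type and 8 in the knockout, 7 in both, while 4 and 3 rose. Over all genes tested, 5.22% and 7.25% fell and 9.04% and 10.6% rose. Slc10a1, the sodium-dependent bile acid uptake carrier, had -0.89 and -0.82, with a difference of 0.07 (95% interval -0.23 to 0.38). Slco1a1, a sodium-independent carrier, fell by 4.32 and 4.49. Cyp7a1, the rate-limiting enzyme of bile acid synthesis, had 0.31 and 0.01 and was called in neither.

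Among 17 genes of the clock, 3 fell and 1 rose in wild type, and 4 fell and 2 rose in the knockout, where 5.22% and 7.25% of all genes tested fell. Cry1, a clock repressor, had -0.87 and -1.33, and Dbp, a clock output factor, had 1.47 and 1.97. Of 17 DNA replication and cell cycle genes tested, of 24 listed, 3 rose in wild type and 2 in the knockout, 1 in both, Mcm6 of the replicative helicase at 0.91 and 1.14. Of all genes tested 9.04% and 10.6% rose, and without the 2 libraries 5 of the 17 rose in each genotype. Of 16 Kupffer cell and macrophage markers 0 were called in either genotype, where 14.3% and 17.8% of all genes tested were called, and of 12 endothelial markers also 0. The macrophage list had median responses of -0.09 and -0.17, with 7 of 16 shown to lie within 2-fold. Without the 2 libraries, which were low in these markers, 12 of 16 macrophage markers and 11 of 12 endothelial markers were within 2-fold, the latter against 2 of 12 with them. Lyve1, a hyaluronan receptor of the endothelium, was then called in wild type at 1.30 (limma, adjusted p = 0.00112), and its difference of -1.21 had an unadjusted p of 0.000362 and an adjusted p of 0.918. Eng, an endothelial co-receptor, and Cd163, a macrophage scavenger receptor, were then called in the knockout at -0.39 and -0.71.

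Calls among markers of other cells stand beside 14.3% of all genes tested in wild type and 17.8% in the knockout. No neutrophil (3 tested), lymphocyte (3), bile duct (4) or erythroid (5) marker was called, but these lists are too short to set against those shares. Of 13 stellate cell and matrix markers 3 fell in wild type and 2 in the knockout, 2 in both (Colec11 and Ecm1). Of all genes tested 5.22% and 7.25% fell. Without the 2 libraries 5 and 6 of the 13 fell. Of 3 adipocyte markers tested, Fabp4, a fatty acid binding protein, rose in both genotypes, by 2.56 and 1.88, and Lipe, a lipase, was called in the knockout at 0.71. Car3, the most abundant of the 3, went the other way, at -0.725 in wild type and -0.52 in the knockout, called in neither. Adipoq, Lep, Retn and Plin1 were below the filter. Of 2 exocrine pancreas markers Cela1, an elastase, was called in wild type at -0.81.

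The interaction at 28 days was last set beside that of the 16 libraries of 90 days, where the mice, the length of treatment and the sex-linked transcripts all differed. Xist was at most 0.02 FPKM at 90 days. Over 10505 genes with a value at both times, the interaction estimates had a Pearson correlation of -0.0874. Of the 279 genes with an unadjusted p under 0.05 at 28 days and a value at 90 days, 106 had the same sign at 90 days and 2 of these also had an unadjusted p under 0.05 there. At 90 days 0 genes were called in the interaction by limma, with 610 at an unadjusted p under 0.05. Acot3 had responses of 1.14 and 2.11 at 90 days, a difference of 0.97 (95% interval -0.72 to 2.66), and Plin2 had 0.11 and 0.15. Cyp3a41b and Cyp3a16 were below the filter at 90 days. The correlation of the wild-type and knockout responses was 0.662 there and 0.888 at 28 days.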

How the data were processed

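Whole-liver RNA was sequenced with an Illumina TruSeq kit, per the labels. The authors deposited FPKM per gene and library in 1 table of 28 columns. The submitters' processing notes name the tool Cuffdiff and, as builds, GRCm38 and mm10. The notes and labels used here give no aligner. Groups came from the labels. Of 17792 genes, 17743 (99.72%) were matched to RefSeq for positions. FPKM carries no read total. From low values of 5755 genes the depth was estimated at 10.04 to 13.08 M fragments, with 76.5% to 81.4% of these values within 0.15 fragments of a whole number, which gives no counting interval.

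Values were transformed as log2(FPKM + 1), which understates changes of low genes, and 4 group means were fitted to the 12 libraries in R 4.3.3 with limma 3.58.1 (8 residual and 4.52 prior degrees of freedom, variance trend). Tests were two-sided, adjusted over 10862 genes by Benjamini-Hochberg and called under 0.05. Responses within 2-fold were tested with 2 one-sided tests. The fit was tested on simulated data. Python 3.11.15 with pandas 2.3.3, numpy 2.4.6 and matplotlib 3.10.9 handled the table and the plots.

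The gene lists, the members and the tests were chosen with earlier results of these data known. Counts of called list members stand beside the shares of all genes tested. These were 9.04% rising and 5.22% falling in wild type, and 10.6% rising and 7.25% falling in the knockout. Named genes were those with the smallest interaction p (6), the highest and lowest mean responses (8 each) among genes without overlap, the largest and smallest knockout responses relative to wild type (4 each), the smallest interaction p among genes called in 1 genotype (3 each) or of opposite sign (4), the narrowest differences (6), the 3 smallest p of each list, Pparg and Lyz2, and members of described lists. Some of these are not reported here. The alternatives were a pseudocount of 0.1, other filters and scalings, library weights, a replicate block, a fit of all 28 libraries or of each genotype alone, another variance prior, and leaving out each library. Leaving out 2 wild-type libraries together was chosen after seeing the data.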

Additional observations from a re-analysis of the deposited data

How the results depend on the processing

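Library weights raised the calls to 2752 in wild type, 3050 in the knockout and 1909 shared, and lowered the median excess of the knockout response to 0.0265. Over genes called in wild type that excess was 0.00166, over genes called in the knockout 0.135, and without both wild-type libraries low in endothelial markers -0.000485. Without both, but with genes chosen by a mean orthogonal to the difference, it was 0.0206. The cause was not tested. Leaving out each library in turn gave 1177 to 1700 calls in wild type, 1330 to 2213 in the knockout, 983 to 1300 shared, 9757 to 9929 genes within 2-fold and a median excess of 0.0105 (without WT DEHP replicate 5) to 0.0996 (without KO DEHP replicate 7). Interaction calls ran from 0 to 1 (Bcl6, without WT CMC replicate 6), and were 1 after quantile normalization (Cyp3a41b) and 2 with all 28 libraries. Both genes of the fit of 28 were below the filter at 90 days. The responses within 2-fold numbered 15955 without a filter, 6252 with a filter of 5 FPKM, where more and fewer genes were tested, and 4241 at 1.5-fold. On the same genes a pseudocount of 0.1 lowered them from 10068 to 8352. Opposite calls, 0 as reported, were 1 or 2 under some filters and omissions and 4 with library weights. Upper quartile scaling put 53.7% of wild-type and 50% of knockout calls among genes that rose, against 63.4% and 59.3% as reported.

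With the replicate number as a block, 1316 genes were called in wild type, 1698 in the knockout, 1049 in both and 0 in the interaction. Residuals of libraries with the same number correlated at -0.307 to 0.099. The lowest values, -0.307 and -0.228, each involve 1 of the wild-type libraries that stood apart. Such correlations cannot exclude something shared by number, and no pairing was used in the main fit. The mean responses of 21 genes, those with the highest, the lowest or the most precisely compared responses, kept direction and call in 462 of 462 recomputations. These genes were chosen from the same libraries for large or precise responses, so that outcome was largely set by the choice. With 3 libraries per group and about 10.04 to 13.08 M fragments each, precision at single genes was limited. Before adjustment, differences below about 0.466 on the log2 scale were mostly unresolved. After adjustment, no larger difference was called in the main fit either, although 56 genes had a difference of 1 or more.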
